A study of Homo sapiens with 8 samples.

Results

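The RBM family gathers genes named for the RNA-binding motif that their proteins carry. The members described here were a list of 37 symbols, which leaves out RBM39 and RBM23, and all 37 were found among the 60624 genes of the count files and among the 18661 genes that passed a filter on low counts. The rule uses symbols and no measured value, although earlier results of these data were known when the list was made.

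A549 cells are a long-established line from a human lung adenocarcinoma. Indisulam is an aryl sulfonamide that makes the ubiquitin ligase adaptor DCAF15 take up RBM39, a splicing factor of this family, for degradation, and SPHINX31 inhibits SRPK1, a kinase of SR splicing factors. The comparisons asked how the transcriptome differed with each compound alone and with both. The 4 groups were untreated A549 cells, cells given indisulam, cells given SPHINX31 and cells given the combination, with 2 libraries each that the submitters call technical duplicates. The study's methods give 0.5 µM indisulam, 5 µM SPHINX31 and 24 h of treatment, whereas the labels give 2 µM indisulam and 18 h, so the dose and time are not certain. All groups share the same parental line grown in RPMI with serum, and no vehicle is named for the untreated cells. Because the libraries of a group are technical duplicates, every p-value below measures only the spread between such libraries.

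RBM proteins bind RNA through RNA recognition motifs and act at most steps of an RNA's life. Some sit in the spliceosome or set which exons are kept, others belong to the exon junction complex, the machinery that writes N6-methyladenosine (m6A), the nuclear exosome adaptors or the nucleolus, and a last set acts on the stability and translation of mature mRNA. Several members are known to regulate their own or each other's transcripts through splicing.

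Counts on genes were between 51727369 and 63186989 per library, and 83% to 86% of the reads in each file were assigned to a gene. Levels are given as CPM, the counts of a gene per 1000000 counts of the library, with library sizes scaled by edgeR's TMM method. All 8 epithelial and A549 marker genes checked were present, with KRT8 between 3474 and 4103 CPM, while the surfactant gene SFTPB was at 0 and SFTPA1 did not exceed 0.0175 CPM, with SFTPC up to 0.310 CPM and NAPSA up to 0.858 CPM. Of the immune, endothelial and fibroblast markers, CD3E was at 0 and PTPRC, CDH5, COL1A2 and DCN did not exceed 0.138 CPM, VWF 0.192 CPM and PDGFRB 0.297 CPM, whereas CD14 lay between 6.83 and 9.76 CPM, COL1A1 between 3.23 and 4.65 CPM and PECAM1 between 1.45 and 2.36 CPM. PECAM1 was 1.42-fold lower with the combination than with SPHINX31 (edgeR adjusted p = 0.0229). Markers of the line also changed against untreated cells (edgeR adjusted p under 0.05). With indisulam KRT7, AKR1B10 and CDH1 were lower (log2 fold changes of -0.39, -0.39 and -0.30) and EPCAM higher (0.18). With SPHINX31 KRT8, KRT18 and CDH1 were lower (-0.22, -0.22 and -0.23). With the combination CDH1 (-0.53), AKR1B10 (-0.50), KRT7 (-0.47), KRT18 (-0.22) and KRT8 (-0.13) were lower and EPCAM (0.23) higher. AKR1C1 and ALDH1A1 did not pass. The part of any of these markers in the results was not tested. In bulk RNA a smaller number of cells of a kind and less RNA per cell cannot be told apart.

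All members were expressed above the filter, at levels that spanned a wide range. Levels between genes are compared here per kilobase of annotated exon (CPM per kb), as the mean of the 2 untreated libraries. The highest level was that of RBM3, a cold-inducible translation factor, at 75.4 CPM per kb ± 0.482 (SD, n = 2). It was followed by RBMX, the hnRNP G splicing protein, at 58.8 ± 0.403, by the tri-snRNP component RBM42 at 39.7 ± 2.15, by RBM10 at 26.5 ± 0.196 and by the exon junction core protein RBM8A at 24.8 ± 0.430, none of which overlapped with the next in order. Further down the order, RBM47 overlapped with RBM22, RBM12 with RBM25, RBM38 with RBM26, RBM24 with RBM33, RBM12B with RBM15, RBM15 with RBM5, RBM5 with RBM28, RBM4B with RBM45 and RBM43 with RBM48 between their untreated libraries, so that these neighbours did not differ beyond their spread. Over the family the median was 5.80 CPM per kb, or 7.50 when the longest transcript was taken as the length. The order also depended on the length, with a Spearman's rho of 0.96 between the 2 orders. With the longest transcript RBM3, RBMX and RBM42 stayed highest. RBM47 (27.9 CPM per kb) then came before RBM10 (27.6) and RBM8A (26.9), and RBMS1 moved from rank 21 to rank 11. At the low end stood RBM20, the heart titin splicing factor, at 1.20 ± 0.00343, RBM34 at 0.246 ± 0.0255 and RBMS3 at 0.0452 ± 0.00430, so that the highest level was 1670 times the lowest.

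**Figure D1:**
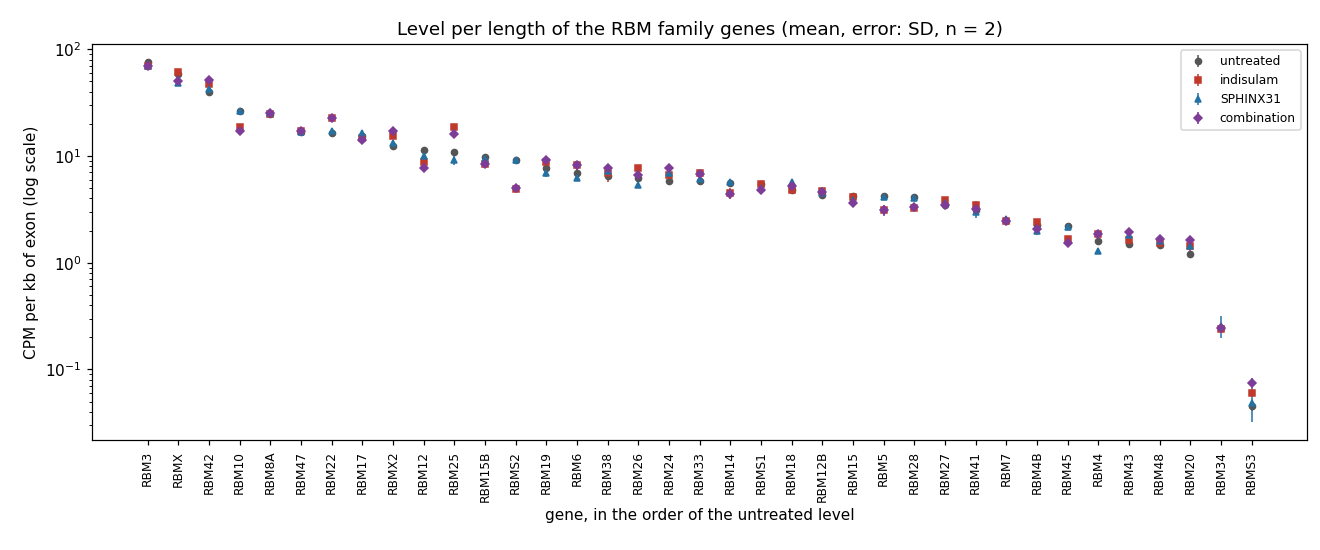
Level of each RBM family gene in CPM per kb of exon on a log axis, for the 4 groups, as the mean of 2 libraries with the SD as error bar, in the order of the untreated level. RBM3 stood highest at 75.4 CPM per kb and RBMS3 lowest at 0.0452, and the groups of a gene lay closer to each other than most genes of the family did.

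Reads cannot be assigned with certainty where genes share bases. RBM34 shared 48.6% of its exonic bases on the same strand with ARID4B, whose counts were between 2445 and 3499 per library, and RBM34 itself reached only 0.632 to 0.886 CPM, so its level is uncertain. RBM27 shared 44.8% of its exonic bases with a readthrough gene that had at most 1 count. In each file 4.82% to 6.03% of the reads were set aside as ambiguous between genes. The low count of the readthrough gene therefore does not show that the level of RBM27 was unaffected. RBM4 shared 23.8% with the RBM14-RBM4 readthrough, and RBM5 and its neighbour RBM6 shared 456 exonic bases. The strand setting of the counting is not given in the sources used here, so overlaps on the opposite strand also leave RBM12B (37.7% of its exonic bases, with CIBAR1), RBM15B (20% with DCAF1), RBM8A (13.9% with GNRHR2), RBM4B (13.7% with RBM4) and RBM38 (12.5% with RBM38-AS1) uncertain to that extent.

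The comparison of indisulam with untreated cells asked how the transcriptome differed with this compound alone. With indisulam 18 of the 37 members changed, 10 of them higher and 8 lower (edgeR, quasi-likelihood F test, with p-values adjusted over all genes by the Benjamini-Hochberg method and called under 0.05). Over all genes tested 43.7% changed, 20.1% higher and 23.5% lower, so the family's share of 48.6% was near the background. The number of members that were higher was 6 without untreated replicate 1 and 5 without untreated replicate 2, in place of 10. The members had a higher median level than all genes tested, at 40.5 against 10.6 CPM. Shares and fold sizes were not matched for level, and its part in them was not tested. The changes of members were modest, with a median absolute log2 fold change of 0.20 against 0.26 for all genes. None reached a log2 fold change of 1 in size in any comparison with untreated cells. The largest were a rise of RBM25, a U1 snRNP-associated splicing factor, by 1.70-fold, and a fall of RBMS2, a single-stranded nucleic acid binding protein of mRNA stability, by 1.83-fold.

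With SPHINX31 5 members changed, which were RBM24 and RBM18 upwards and RBM4, RBMX and RBM12 downwards, against 8.61% of all genes tested (4.94% higher and 3.67% lower). Scaled by total counts only, 3 members were higher and 1 lower. No member changed by a log2 fold change of 0.5 or more with SPHINX31. With the combination 24 members changed, 12 in each direction, or 64.9% of the family against 50% of all genes (23.8% higher and 26.3% lower). Scaling by total counts alone gave 15 higher and 9 lower. In all, 27 of the 37 members changed in at least 1 of the 3 comparisons with untreated cells, and 10 did not pass in any. Of all genes tested, 59.3% changed in at least 1 of the 3. These shares, too, were not matched for level.

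**Figure D2:**
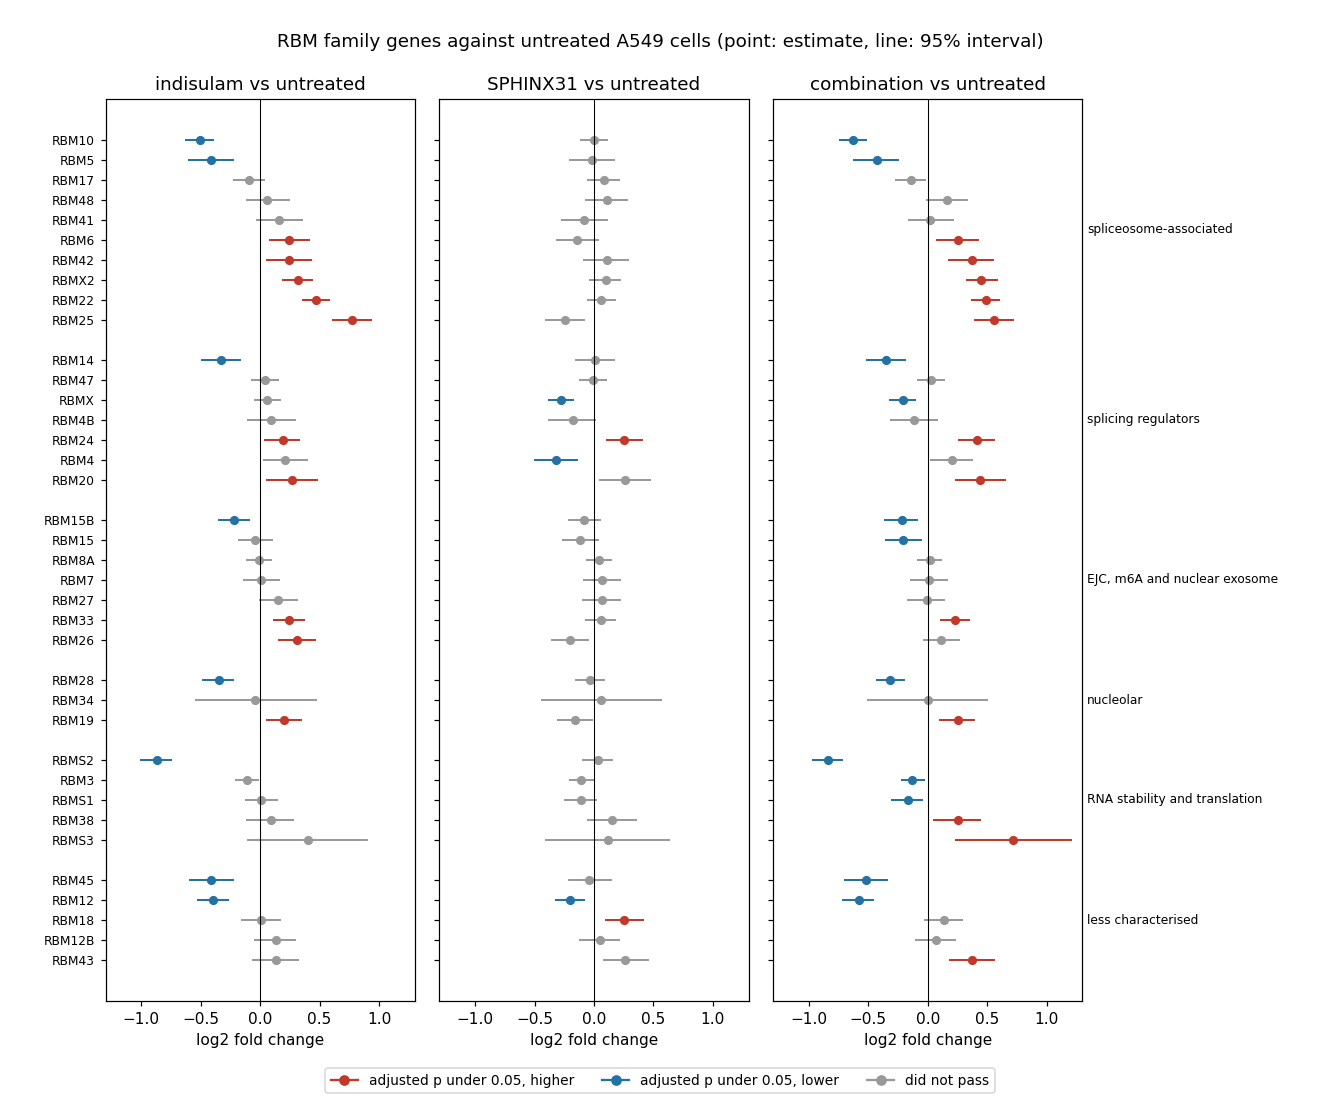
Log2 fold change of the 37 RBM family genes against untreated cells with indisulam, SPHINX31 and the combination, with 95% intervals as lines, grouped by role. Red points passed as higher and blue points as lower at an adjusted p under 0.05, and grey points did not pass: 18, 5 and 24 members passed in the 3 panels.

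The promoters of the members with the largest changes are shown so that those that rose (RBM25, RBM22) can be set beside those that fell (RBMS2, RBM10) with indisulam. RefSeq start sites on GRCh38.p14 were available for 34 members, with a single promoter entry for 32. The 250 bases before the start are printed 5′ to 3′ on the strand of the gene, and capitals mark every CCGGAA (the core bound by ETS factors) and every CCAAT on either strand. The windows are at chr14:73058284-73058533 on the plus strand (RBM25), chr5:150701063-150701312 on the minus strand (RBM22), chr12:56521570-56521819 on the plus strand (RBMS2) and chrX:47144971-47145220 on the plus strand (RBM10).
RBM25: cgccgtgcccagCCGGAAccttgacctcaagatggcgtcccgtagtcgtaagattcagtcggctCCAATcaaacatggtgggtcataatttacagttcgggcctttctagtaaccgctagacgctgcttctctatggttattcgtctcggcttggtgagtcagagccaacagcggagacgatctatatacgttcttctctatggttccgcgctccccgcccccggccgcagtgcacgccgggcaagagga
RBM22: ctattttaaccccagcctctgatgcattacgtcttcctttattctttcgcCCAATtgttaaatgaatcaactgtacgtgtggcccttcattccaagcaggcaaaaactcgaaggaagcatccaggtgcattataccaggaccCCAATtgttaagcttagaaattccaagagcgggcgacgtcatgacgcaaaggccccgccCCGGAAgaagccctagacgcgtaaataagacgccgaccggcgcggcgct
RBMS2: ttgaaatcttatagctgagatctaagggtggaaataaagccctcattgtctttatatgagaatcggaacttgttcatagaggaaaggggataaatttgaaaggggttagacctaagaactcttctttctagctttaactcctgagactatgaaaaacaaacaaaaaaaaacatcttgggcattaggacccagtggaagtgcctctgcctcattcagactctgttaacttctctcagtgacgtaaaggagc
RBM10: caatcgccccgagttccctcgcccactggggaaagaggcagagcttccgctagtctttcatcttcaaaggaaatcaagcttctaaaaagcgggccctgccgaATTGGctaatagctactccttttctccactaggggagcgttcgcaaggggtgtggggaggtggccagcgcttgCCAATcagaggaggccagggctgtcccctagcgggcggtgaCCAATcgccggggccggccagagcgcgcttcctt

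The RBM25 window held 1 CCGGAA and 1 CCAAT, and that of RBM22 held 1 CCGGAA and 2 CCAAT. The RBM10 window held 3 CCAAT and no CCGGAA, and the RBMS2 window held neither and had the lowest GC content of the 4, at 39.2% against 50.8% to 60.4%. CCGGAA was found in 11 of the 32 members with a single entry (34.4%) and in 14.5% of all 35116 promoters. CCAAT was found in 16 of 32 (50%) against 32% of all. Of the other motifs counted, GGGCGG (the GC box) was in 17 of 32 (53.1%) against 42.6% of all. TATAAA (the TATA box) was in 3 of 32 (9.38%, RBMS2 among them) against 10.7% of all. The 35116 promoters are all entries, whether or not their genes were tested here. By the indisulam result, CCGGAA was present in 5 of 10 members that rose, 3 of 8 that fell and 3 of 14 that did not pass. In the 4 windows printed no CCGGAA overlapped with a CCAAT, and a match is a description of the sequence only.

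Among the 10 spliceosome-associated members, 5 rose and 2 fell with indisulam, and the same counts passed with the combination, against 20.1% higher and 23.5% lower among all genes with indisulam and 23.8% and 26.3% with the combination. With SPHINX31 0 passed in edgeR, where 1 (RBM25) had an unadjusted p under 0.05, as 24.1% of all genes did. RBM25 (chromosome 14, 73058532 to 73123899, GENCODE on GRCh38) measured 122 and 134 CPM in the untreated libraries, 230 and 206 with indisulam, 100 and 116 with SPHINX31 and 190 and 188 with the combination. The 4 libraries with indisulam all lay above the 4 without it. Its log2 fold change with indisulam was 0.77 (SE 0.0739, edgeR adjusted p = 2.87e-06), and with the combination it was 0.56 (SE 0.0738, adjusted p = 3.07e-05). The difference of -0.24 with SPHINX31 alone had an adjusted p of 0.0623, and that of -0.20 between the combination and indisulam 0.113.

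RBM22, which contacts the catalytic core of the spliceosome (chromosome 5, 150690792 to 150701077), stood at 59.0 and 58.6 CPM without treatment, 82.7 and 79.9 with indisulam, 60.6 and 62.3 with SPHINX31 and 80.1 and 84.4 with both. The indisulam libraries, with or without SPHINX31, did not overlap with the others. It rose by 1.38-fold with indisulam (log2 0.47, SE 0.0521, edgeR adjusted p = 1.00e-05) and by 1.40-fold with the combination. RBMX2, of the RES complex that helps the spliceosome become active, followed the same order, with 34.9 and 34.2 CPM untreated, 44.6 and 41.5 with indisulam, 37.5 and 36.6 with SPHINX31 and 47.6 and 47.0 with the combination. It rose by 1.25-fold with indisulam (edgeR adjusted p = 5.86e-04) and by 1.37-fold with the combination (adjusted p = 2.23e-05), without overlap between libraries with and without indisulam.

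RBM42 varied more between libraries of a group. It measured 90.8 and 84.1 CPM untreated, 92.6 and 115 with indisulam, 99.3 and 88.9 with SPHINX31 and 111 and 115 with the combination. The first indisulam library lay within the range of the SPHINX31 libraries, and the combination libraries lay above all those without indisulam. The rise with indisulam was 1.18-fold (edgeR adjusted p = 0.0337) and was lost when untreated replicate 2, indisulam replicate 2 or either combination library was left out, with log2 fold changes from 0.09 to 0.39, and when only the groups compared were fitted. With the combination the rise of 1.29-fold (adjusted p = 0.00293) passed in every fit that left out 1 library, but that against SPHINX31 (1.20-fold, adjusted p = 0.0213) did not pass without SPHINX31 replicate 2 or either combination library, with log2 fold changes from 0.19 to 0.35.

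RBM10, RBM5 and RBM6 form a set of related regulators of exon choice, and they moved in different directions. RBM10 (chromosome X, 47145221 to 47186813) had 94.4 and 93.4 CPM untreated, 64.4 and 67.7 with indisulam, 95.9 and 91.7 with SPHINX31 and 61.3 and 60.2 with the combination. Its 4 libraries with indisulam all lay below its 4 without. The fall was 1.42-fold with indisulam (log2 -0.51, SE 0.0517, edgeR adjusted p = 4.57e-06) and 1.55-fold with the combination (log2 -0.63, SE 0.0518, adjusted p = 4.53e-07). For SPHINX31 alone the 95% interval of the log2 fold change ran from -0.11 to 0.11.

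RBM5 and RBM6 are neighbours on chromosome 3, at 50088919 to 50119021 and 49940007 to 50100045, both on the plus strand. RBM5 measured 42.2 and 44.7 CPM untreated, 35.1 and 30.1 with indisulam, 41.9 and 44.0 with SPHINX31 and 35.1 and 29.3 with the combination. RBM6 measured 49.3 and 51.1 CPM untreated, 63.1 and 55.7 with indisulam, 43.4 and 47.7 with SPHINX31 and 64.0 and 55.4 with the combination. In each gene the 4 libraries with indisulam were apart from the 4 without, below them in RBM5 and above them in RBM6. RBM5 fell by 1.33-fold with indisulam (edgeR adjusted p = 0.00178) and by 1.35-fold with the combination (adjusted p = 0.00100). RBM6 rose by 1.18-fold with indisulam (adjusted p = 0.0223) and by 1.19-fold with the combination (adjusted p = 0.0165). The first of these rises missed the threshold without untreated replicate 1 or 2 or indisulam replicate 1, and the second without untreated replicate 1 or combination replicate 1, with log2 fold changes of at least 0.15 throughout. In both groups with indisulam, replicate 1 was the higher library for RBM5 and for RBM6.

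Of the other spliceosome-associated members, RBM17 (SPF45, a 3′ splice site factor) had 94.8 and 103 CPM untreated, 95.2 and 90.2 with indisulam, 101 and 108 with SPHINX31 and 88.0 and 91.2 with the combination. It passed only between the combination and SPHINX31, where the 2 groups did not overlap and it was 1.17-fold lower (edgeR adjusted p = 0.00635). That call was lost without SPHINX31 replicate 2 or combination replicate 1, with log2 fold changes from -0.26 to -0.16. RBM41 and RBM48, both linked to the minor spliceosome, did not pass in any comparison, with log2 fold changes between -0.08 and 0.16 against untreated cells.

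Among the 7 splicing regulators, 2 rose and 1 fell with indisulam, 1 rose and 2 fell with SPHINX31, and 2 rose and 2 fell with the combination, where 43.7%, 8.61% and 50% of all genes passed. RBMX was lower with SPHINX31 both without and with indisulam. It measured 347 and 344 CPM untreated, 362 and 360 with indisulam, 275 and 295 with SPHINX31 and 300 and 296 with the combination. The 4 libraries with SPHINX31 all lay below the 4 without it. It was 1.21-fold lower with SPHINX31 than in untreated cells (log2 -0.28, SE 0.0480, edgeR adjusted p = 0.00316). It was also 1.21-fold lower with the combination than with indisulam (log2 -0.28, SE 0.0480, adjusted p = 0.00382). This pair of comparisons shares no library but came from 1 fit of all 8 libraries. With the combination it was 1.16-fold lower than untreated (adjusted p = 0.00219), and with indisulam alone the log2 fold change was 0.06 with a 95% interval from -0.04 to 0.17.

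RBM4, a regulator of splicing and translation, had 10.9 and 10.1 CPM untreated, 12.5 and 11.7 with indisulam, 8.32 and 8.50 with SPHINX31 and 12.5 and 11.6 with the combination. The SPHINX31 libraries were the lowest, and the untreated libraries lay below all those with indisulam. The fall with SPHINX31 was 1.25-fold (edgeR adjusted p = 0.0333), and it did not pass when either untreated or either SPHINX31 library was left out (log2 fold changes from -0.37 to -0.26) or when libraries were scaled by total counts alone. Against indisulam the combination gave a log2 fold change of -0.01, and the interaction of both treatments was 0.31 with an unadjusted p of 0.0205 and an edgeR adjusted p of 0.515. Between the combination and SPHINX31 it was 1.43-fold higher (adjusted p = 1.90e-04). Its paralog RBM4B did not pass in any comparison and had log2 fold changes of 0.09, -0.18 and -0.12 with indisulam, SPHINX31 and the combination.

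RBM14, a paraspeckle protein and coactivator whose gene lies beside RBM4, had 36.5 and 36.4 CPM untreated, 26.7 and 31.5 with indisulam, 37.8 and 35.6 with SPHINX31 and 29.2 and 27.9 with the combination. All libraries with indisulam were below all those without. It fell by 1.25-fold with indisulam (edgeR adjusted p = 0.00311) and by 1.28-fold with the combination (adjusted p = 0.00145). RBM20 and RBM24, known as splicing regulators of heart and skeletal muscle, were 1.20-fold and 1.14-fold higher with indisulam (adjusted p = 0.0373 and 0.0428). Both of these calls were lost without either untreated library or without indisulam replicate 1, at log2 fold changes of at least 0.12, and with DESeq2. The RBM20 call was also lost with only the groups compared in the fit, and that of RBM24 with all genes of at least 1 count. With the combination they were 1.36-fold and 1.33-fold higher and passed in every fit that left out 1 library. RBM24 was also 1.19-fold higher with SPHINX31 (adjusted p = 0.0359), which was lost without any 1 of the untreated or SPHINX31 libraries, with log2 fold changes from 0.20 to 0.30. RBM47, an epithelial splicing and RNA editing cofactor, had log2 fold changes between -0.01 and 0.04 against untreated cells.

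Among the 7 members of the exon junction complex, the m6A machinery and the nuclear exosome adaptors, 2 rose and 1 fell with indisulam and 1 rose and 2 fell with the combination, against 43.7% and 50% of all genes. With SPHINX31 0 passed in edgeR, and RBM26 alone had an unadjusted p under 0.05. RBM26, linked to the PAXT adaptor of the nuclear exosome, measured 59.7 and 65.5 CPM untreated, 81.4 and 73.7 with indisulam, 51.7 and 57.1 with SPHINX31 and 68.8 and 66.6 with the combination. The indisulam libraries were the highest and the SPHINX31 libraries the lowest. It was 1.24-fold higher with indisulam than untreated (edgeR adjusted p = 0.00251) and 1.24-fold higher with the combination than with SPHINX31 (adjusted p = 0.00189), while the combination against untreated cells gave a log2 fold change of 0.11 (adjusted p = 0.188).

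RBM33, an adaptor of the m6A demethylase ALKBH5, had 74.7 and 77.7 CPM untreated, 93.6 and 86.8 with indisulam, 77.4 and 80.9 with SPHINX31 and 92.1 and 86.9 with the combination. Libraries with and without indisulam did not overlap. It rose by 1.18-fold with indisulam (edgeR adjusted p = 0.00358) and by 1.17-fold with the combination (adjusted p = 0.00403). Against SPHINX31 the combination was 1.13-fold higher (adjusted p = 0.0195), a call lost without SPHINX31 replicate 1 or combination replicate 1, with log2 fold changes from 0.15 to 0.22. RBM15 and RBM15B, which recruit the m6A writer to RNA, were 1.15-fold and 1.17-fold lower with the combination (adjusted p = 0.0194 and 0.00861), and RBM15B was 1.16-fold lower with indisulam (adjusted p = 0.0114). The RBM15 call was lost without any 1 of the untreated or combination libraries, with leave-one-out log2 fold changes from -0.21 to -0.19, and with DESeq2, total counts alone or all genes of at least 1 count. The RBM15B calls were lost without untreated replicate 1 or without replicate 1 of the treated group, with log2 fold changes from -0.27 to -0.16. RBM7, RBM8A and RBM27 did not pass in any comparison. The exon junction core gene RBM8A had log2 fold changes between -0.01 and 0.04 against untreated cells, with the 95% interval for indisulam from -0.11 to 0.09.

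Of the 3 nucleolar members, which act in ribosome assembly, RBM19 rose and RBM28 fell with indisulam and with the combination, and RBM34 did not pass (43.7% and 50% of all genes passed). RBM28 had 64.8 and 67.4 CPM untreated, 53.5 and 49.8 with indisulam, 63.3 and 65.7 with SPHINX31 and 53.7 and 52.6 with the combination. RBM19 had 45.4 and 45.0 CPM untreated, 52.9 and 51.2 with indisulam, 38.0 and 42.8 with SPHINX31 and 55.8 and 51.4 with the combination. Both genes were separated by indisulam without overlap, in opposite directions. RBM28 fell by 1.28-fold with indisulam (edgeR adjusted p = 1.97e-04) and by 1.24-fold with the combination (adjusted p = 3.73e-04). RBM19 rose by 1.15-fold with indisulam (adjusted p = 0.0222) and by 1.19-fold with the combination (adjusted p = 0.00674). The first rise of RBM19 was lost without either untreated library or indisulam replicate 1, with log2 fold changes from 0.18 to 0.23, and the second without combination replicate 1, with log2 fold changes from 0.19 to 0.30. Between the combination and SPHINX31 RBM19 was 1.33-fold higher (adjusted p = 1.91e-04).

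Of the 5 members that act on RNA stability and translation, 1 passed with indisulam, 0 passed with SPHINX31 in edgeR (1, RBM3, had an unadjusted p under 0.05) and 5 passed with the combination, 2 higher and 3 lower, where 23.8% of all genes were higher and 26.3% lower. RBMS2 (chromosome 12, 56521820 to 56596193) measured 83.5 and 78.3 CPM untreated, 44.4 and 43.9 with indisulam, 80.6 and 84.5 with SPHINX31 and 46.7 and 43.4 with the combination. The gap between libraries with and without indisulam was wider than any spread within a group. Its log2 fold change was -0.87 with indisulam (SE 0.0585, edgeR adjusted p = 1.14e-07), -0.84 with the combination (SE 0.0583, adjusted p = 8.41e-08) and -0.87 between the combination and SPHINX31. RBMS2 shares 6.71% of its exonic bases on the opposite strand with BAZ2A, and 5.38% of its 100-base windows also occur in the pseudogene RBMS2P1.

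RBMS3, the lowest member per length, had 0.777 and 0.889 CPM untreated, 1.10 and 1.10 with indisulam, 0.683 and 1.11 with SPHINX31 and 1.26 and 1.48 with the combination, from as few as 37 counts in a library. The combination libraries were the highest, and 1 SPHINX31 library was at the level of the indisulam libraries. It was 1.65-fold higher with the combination than untreated (log2 0.72, SE 0.223, edgeR adjusted p = 0.0158), which was lost without untreated replicate 1 or combination replicate 2 (log2 fold changes from 0.60 to 0.84) and with DESeq2. Against SPHINX31 it was 1.52-fold higher (adjusted p = 0.0374), which was lost without SPHINX31 replicate 1 or either combination library (log2 fold changes from 0.32 to 1.02) and with DESeq2. RBM38, a p53 target that binds AU-rich elements, was 1.19-fold higher with the combination, and RBMS1 and RBM3 were 1.13-fold and 1.09-fold lower (adjusted p = 0.0382, 0.0262 and 0.0262). All of these 3 calls were lost without any 1 of the untreated or combination libraries, at log2 fold changes from 0.20 to 0.30 for RBM38, -0.20 to -0.15 for RBMS1 and -0.13 to -0.11 for RBM3, whose call was also lost without either indisulam library. With total counts alone the calls of RBMS1 and RBM3 were lost, and that of RBM3 also with all genes of at least 1 count.

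Of the 5 less characterised members, 2 fell with indisulam, 1 rose and 1 fell with SPHINX31, and 1 rose and 2 fell with the combination, where 43.7%, 8.61% and 50% of all genes passed. RBM12 was the member that fell in all 3 comparisons with untreated cells. It had 77.8 and 75.5 CPM untreated, 58.9 and 57.6 with indisulam, 63.8 and 69.7 with SPHINX31 and 52.6 and 49.8 with the combination. The 4 groups did not overlap with each other, with untreated cells highest and the combination lowest. The log2 fold change was -0.40 with indisulam (SE 0.0579, edgeR adjusted p = 1.08e-04), -0.20 with SPHINX31 (SE 0.0575, adjusted p = 0.0478) and -0.58 with the combination (SE 0.0581, adjusted p = 2.56e-06). The SPHINX31 call was lost without either untreated library, SPHINX31 replicate 1 or either combination library, with log2 fold changes from -0.27 to -0.14, and with total counts alone or only the groups compared. RBM12 shares 8.58% of its exonic bases with CPNE1 on the same strand.

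RBM45 measured 10.3 and 10.8 CPM untreated, 7.94 and 7.87 with indisulam, 9.93 and 10.6 with SPHINX31 and 7.56 and 7.13 with the combination. All its libraries with indisulam lay below those without. It fell by 1.33-fold with indisulam (edgeR adjusted p = 0.00131) and by 1.43-fold with the combination (adjusted p = 1.73e-04). RBM18 was 1.19-fold higher with SPHINX31 (adjusted p = 0.0463), a call lost without any 1 of the untreated or SPHINX31 libraries, with log2 fold changes from 0.18 to 0.33, and RBM43 was 1.29-fold higher with the combination (adjusted p = 0.00260). RBM12B did not pass in any comparison.

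The design gives the effect of each compound in a pair of comparisons that share no library. All comparisons came from 1 fit of the 8 libraries with common scaling, so the calls of a pair are not independent. The effect of indisulam without SPHINX31 (against untreated) and in its presence (combination against SPHINX31) each called 18 members. In the second, 10 were higher and 8 lower against 49.9% of all genes tested (23.4% higher and 26.5% lower), and 15 members were called in both, all in the same direction, which is 83.3% of each list. Over all genes tested 6774 were called in both with the same direction, or 83.1% of the first list and 72.7% of the second. RBM15B, RBM20 and RBM24 were called only in the first and RBM17, RBM4 and RBMS3 only in the second, and a difference between the effects was not called for any of these. Spearman's rho between the log2 fold changes of the pair was 0.95 over the 37 members and 0.83 over all genes tested. It is given as a description across genes, which are not independent and here share depth and normalization. Members and all genes were not matched for level, and the part of level in these values was not tested.

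The effect of SPHINX31 called fewer members in its pair of comparisons. Without indisulam it called the 5 members named above and in its presence it called RBMX, which is 1 member against 7.50% of all genes tested (3.17% higher and 4.32% lower). The other 4 had the same sign in the second comparison, with log2 fold changes of -0.01 for RBM4, -0.19 for RBM12, 0.22 for RBM24 and 0.13 for RBM18. Spearman's rho was 0.75 over the 37 members and 0.40 over all genes tested, again without matching for level. The median absolute log2 fold change of the members was 0.11 in each of these comparisons.

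The interaction, which asks whether the combination differs from the sum of the log2 fold changes of both single treatments, was called for 0 members and 0 genes in all by edgeR (0% of all genes tested) and for 0 members by DESeq2. At an unadjusted p under 0.05, edgeR gave 3 members (RBM4, RBM27 and RBM19) and 8.49% of all genes tested. The interactions of the members lay between -0.23 and 0.31 on the log2 scale, with a median absolute value of 0.05.

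Genes that work in complexes with members were taken as a list of 32. With indisulam 12 of them rose and 5 fell (53.1% of the list), where 43.7% of all genes passed (20.1% higher and 23.5% lower). With SPHINX31 1 fell (3.12%), where 8.61% of all genes passed (4.94% higher and 3.67% lower). With the combination 12 rose and 8 fell (62.5%), where 50% of all genes passed (23.8% higher and 26.3% lower). Between the combination and SPHINX31 16 were higher and 4 lower (62.5%), against 49.9% of all genes (23.4% higher and 26.5% lower). Between the combination and indisulam 0 passed in edgeR, where 4 had an unadjusted p under 0.05 (22.2% of all genes tested) and DESeq2 called 1. The largest change was that of A1CF, the editing cofactor that works beside RBM47, with 23.5 and 24.7 CPM untreated, 11.2 and 10.4 with indisulam, 23.1 and 25.6 with SPHINX31 and 9.71 and 10.0 with the combination. Its log2 fold change was -1.16 with indisulam (SE 0.0763, edgeR adjusted p = 9.91e-08) and -1.29 with the combination. RNPC3, a protein of the minor spliceosome, moved the other way, from 9.64 and 9.01 CPM untreated to 18.0 and 17.2 with indisulam, 6.53 and 7.93 with SPHINX31 and 16.0 and 14.8 with the combination. It rose with indisulam (log2 0.92, adjusted p = 3.68e-06) and the combination (log2 0.72) and fell with SPHINX31 (log2 -0.36, adjusted p = 0.0362), the last of which was not called without either untreated library or SPHINX31 replicate 1.

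Of the 6 m6A writer genes, METTL3 and CBLL1 rose and VIRMA fell with indisulam, with log2 fold changes of 0.32, 0.36 and -0.19. BUD13, which works with RBMX2 in the RES complex, rose by a log2 fold change of 0.25. Of the 4 genes related to the PRP19 complex, CDC5L rose by a log2 fold change of 0.47 and BUD31 by 0.35. Paraspeckle genes moved in different directions, with NONO (0.20) higher and PSPC1 (-0.34) and SFPQ (-0.16) lower. In the exon junction complex CASC3 (0.28) and MAGOHB (0.17) rose with indisulam and MAGOH and EIF4A3 did not pass. ZFC3H1, of the PAXT adaptor, fell with indisulam (-0.39) and the combination (-0.51).

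Members that rose, fell or did not pass with indisulam overlapped in exon number. The canonical transcripts of the 10 members that rose with indisulam had a median of 16 exons (4 to 24), those of the 8 that fell had 12 (1 to 25) and those of the 19 that did not pass had 6 (3 to 21). Across the 37 members Spearman's rho between exon number and the log2 fold change with indisulam was 0.17, and it was -0.12 over the 18596 tested genes with an annotation, both given as descriptions.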

How the data were processed

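The authors deposited raw read counts per Ensembl gene for each of the 8 libraries, with polyadenylated, stranded preparation. The submitters' processing notes name HISAT2 2.2.1, HTSeq and GRCh38. The counting's strand setting and annotation are not given in the sources used here. Rows of unassigned reads, 14% to 17% of each file, were left out. Symbols, positions and exons came from GENCODE release 44, and promoters from RefSeq on GRCh38.p14.

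Tests were run in edgeR 4.0.16 on R 4.3.3 (TMM, filterByExpr by group, quasi-likelihood test on all 8 libraries, 4 residual degrees of freedom) and Benjamini-Hochberg adjustment over 18661 genes at 0.05. The common biological coefficient of variation was 0.0491. DESeq2 1.42.0 was an alternative. Tables used Python 3.11.15 with pandas 2.3.3. The procedure was run on simulated counts with the common coefficient of variation for every gene and independently drawn libraries. That run could not show how calls behave where libraries share deviations. Same-numbered libraries were not paired. Beyond counting noise, the 2 libraries of each group differed, with a chi-square of 6.35 to 10.1 per degree of freedom.

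The members and lists were chosen with earlier results of these data known. Full values are given for members that passed at a log2 fold change of 0.5 or more in size against untreated cells, or that passed between the combination and a single treatment. Other members are given by role, with the largest changes, and so are the partner genes. Some genes of these lists are not reported here by name.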

Additional observations from a re-analysis of the deposited data

How the results depend on the processing

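Calls were recomputed under 19 settings, among them 8 that each left out 1 library, where the lone library left in a group was assumed to vary like the others. Of 66 called pairs of member and comparison, 44 passed in all 19 settings and none changed direction in any. Of the 1254 values, 93 missed the threshold. These settings include the looser threshold of 0.1 on the main fit, where no call could be lost or change direction. No scaling moved the median of all genes by more than 0.05 on the log2 scale.

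The counts for SPHINX31 were the least settled. The 5 members called with SPHINX31 became 2 with the replicate block, 9 with GC correction and 8 at an adjusted p under 0.1, and 1 to 6 when 1 library was left out (1 without untreated replicate 1, untreated replicate 2 or SPHINX31 replicate 1). The 1 member called between the combination and indisulam became 2 with total counts alone, 3 with all genes of at least 1 count, 6 with GC correction, 5 with GC correction and the block and 4 at 0.1, and 1 to 5 when 1 library was left out (5 without indisulam replicate 2, 3 without either SPHINX31 library). The 1 partner gene called with SPHINX31 became 3 with total counts alone, 2 with DESeq2, 3 with genes of at least 1 count, 2 with only the groups compared, 0 with the block, 5 with GC correction with or without the block and 4 at 0.1, and 0 to 3 when 1 library was left out (0 without either untreated library or SPHINX31 replicate 1, 3 without either indisulam library or SPHINX31 replicate 2). The 0 partner genes between the combination and indisulam became 1 with DESeq2, with genes of at least 1 count, with GC correction, with GC correction and the block and at 0.1, and 0 to 1 when 1 library was left out (1 without indisulam replicate 2). The causes were not tested. The median level per length was 7.50 CPM per kb with the longest transcript as the length in place of all exons (5.80).

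The replicate numbers did not pair the libraries in a common direction. Correlations of same-numbered deviations were -0.609 between untreated and indisulam, -0.53 between indisulam and SPHINX31 and 0.483 between untreated and SPHINX31. Those with the combination lay between 0.0332 and 0.203. The main fit did not model such shared deviations, and their source was not tested. With the replicate block 16, 2 and 23 members were called with indisulam, SPHINX31 and the combination, 18 between the combination and SPHINX31 and 1 between the combination and indisulam. The block ended the calls of RBM42 and RBM24 with indisulam, of RBM24, RBM12 and RBM18 with SPHINX31 and of RBM38 with the combination. With the indisulam numbers exchanged, an alternative added after the data were seen, 20, 7 and 26 members were called against untreated cells, 6 between the combination and indisulam, and 6 and 2 partner genes with SPHINX31 and between the combination and indisulam.

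At RBM34 and RBMS3, with 36 and 37 counts in their lowest library, standard errors were about 0.23, so that small changes were not detectable at this depth.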
